A study of Mus musculus with 4 samples.

Results

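Nox1, Noxa1, Noxo1, Cyba, Duox2, Duoxa2 and Nos2 encode the oxidases of the colon lining that turn NADPH and oxygen into superoxide or hydrogen peroxide, their helper subunits, and the inducible enzyme that makes nitric oxide. They were taken by gene symbol from a table of 25796 genes, with the transcript of highest mean over the 4 libraries kept for each, and all 7 were listed. The libraries are inputs, that is, total RNA not enriched for the base modification N6-methyladenosine (m6A), from epithelial cells shaken off mouse colon in a chelating buffer. Of these, 2 are labelled wild type (WT 1 and WT 2) and 2 are labelled Ythdf1 KO, a knockout of an m6A-binding reader protein. The labels name no age, sex, strain, treatment or knockout allele, and do not say that each library is a different animal. The p-values therefore measure the spread among these samples, which may be technical. Values are given with library 1 before library 2, and Ythdf1 KO 1 and Ythdf1 KO 2 stand for the libraries so labelled.

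NOX1 is the catalytic subunit of the oxidase complex of colon epithelium. It carries electrons from NADPH across the membrane to oxygen, is held stable by the membrane subunit p22phox (Cyba), and is switched on by the organiser NOXO1, the activator NOXA1 and the GTPase RAC1. DUOX2 releases hydrogen peroxide at the apical surface and needs its maturation factor DUOXA2 to leave the endoplasmic reticulum. NOS2 makes nitric oxide from arginine with NADPH and tetrahydrobiopterin, and Nos2 and Duox2 are both known as genes that microbial and cytokine signals induce.

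The labels were checked first on the targeted gene, which was higher in the libraries labelled as its knockout. Ythdf1 had normalised read counts of 1088 and 775 in WT 1 and WT 2 and of 1752 and 1737 in the 2 labelled Ythdf1 KO, so every direction given rests on the labels alone. The ratio of means was 1.87, with an adjusted p of 0.759 in limma-trend and 0.0110 in DESeq2, and q = 0.0145 in the authors' deposited table. A normalised read count is a read count divided by a size factor of its library. Recovered reads on the kept transcripts came to 21686140 to 30951138 per library. Epithelial markers were all listed (10 of 10), led by the keratin Krt8, with summed values of 297561 and 325840 in WT and 308294 and 363560 in the 2 labelled Ythdf1 KO. Leukocyte markers (12 of 14 listed) summed to 1982 to 2193 in WT and to 1094 to 1900.0 in the others, with Ly6g, a neutrophil antigen, the highest of them at 542 and 463 against 122 and 1046. The calprotectin subunit S100a8 and the adaptor Tyrobp were not listed, and the macrophage lysozyme Lyz2 was at 0 in the 2 labelled Ythdf1 KO. Stromal and endothelial markers summed to 1626 and 3463 in WT and to 1844 and 1267 in the others.

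None of the 7 genes, all of which passed the filter on low values, was called between the labelled groups by limma-trend, a linear model of log2(value + 1) fitted over 23116 genes, which called 0 genes in all (0.0%) at a Benjamini-Hochberg adjusted p under 0.05. Before adjustment 1257 genes (5.44%) had p under 0.05, none of them among the 7. On recovered reads edgeR also gave 0 calls (1073 genes had an unadjusted p under 0.05), and DESeq2 called 1431 (6.11%), again none of the 7. By the authors' deposited table, q-values of 1152 genes (4.47%) are under 0.05 on the most abundant transcript. That table lists 20 transcripts of the 7 genes, of which 0 have a q under 0.05, the smallest q being 0.254. With 2 libraries against 2, an exact permutation test of a gene cannot go below p = 0.333 (two-sided), so no such test is given.

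**Figure D1:**
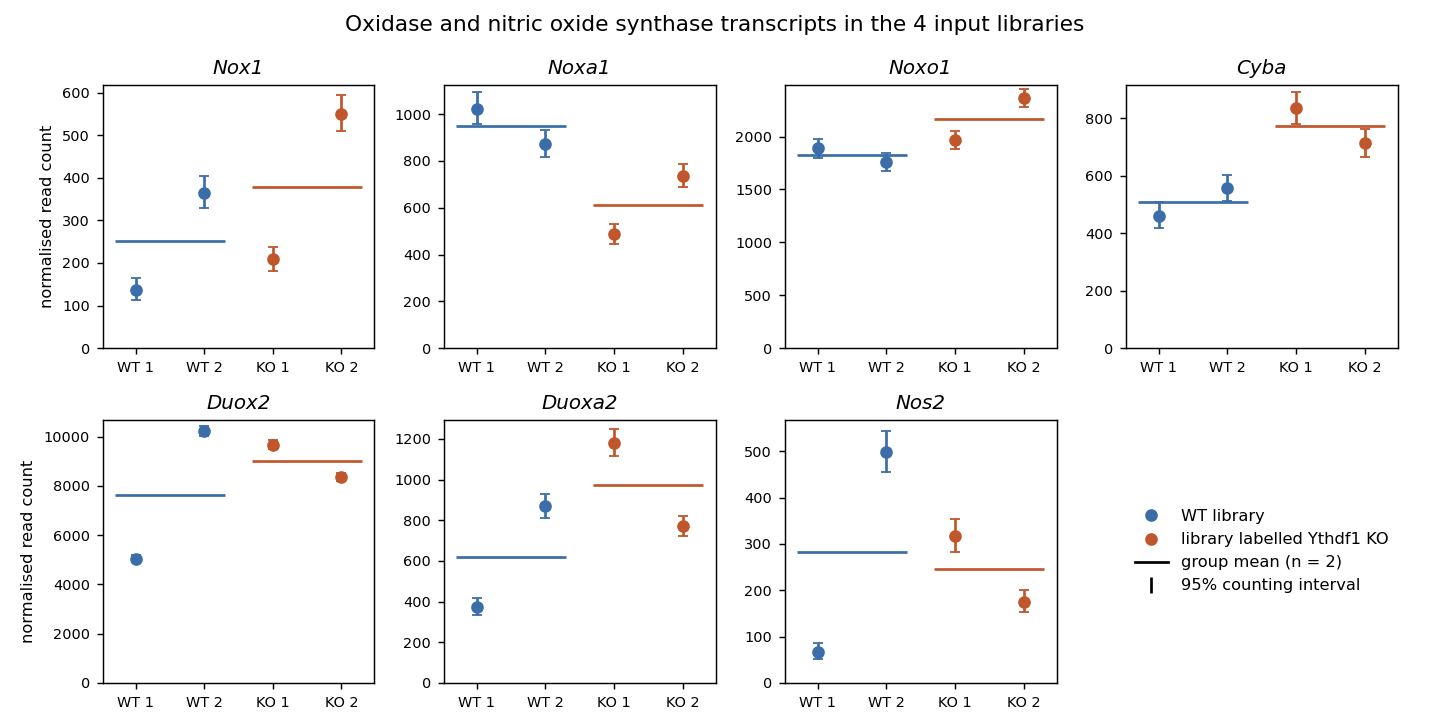
Normalised read count (vertical axis, linear from 0) of each of the 7 genes in each library, with blue points for WT, orange points for libraries labelled Ythdf1 KO, bars for the 95% Poisson counting interval and lines for group means. Noxa1 is lower and Cyba and Noxo1 higher in both orange points than in both blue ones, while WT 1 lies far below WT 2 for Nox1, Duox2, Duoxa2 and Nos2.

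Of the 7, Cyba and Noxo1 were higher in each library labelled Ythdf1 KO than in either WT library, Noxa1 was lower, and the groups of Nox1, Duox2, Duoxa2 and Nos2 overlapped. Among all genes tested, 14.3% lay above and 21.4% below in the same way, and with 7 genes a count of 2 above and 1 below is no result about the set. The count above was 6 of 7 without WT 2, where 27.7% of all genes lay above, and the count below was 3 of 7 without WT 1, where 36.8% of all genes lay below.

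The catalytic subunit Nox1 (gene ID 237038, transcript NM_172203.2, mm10 chrX:134086421-134111854, minus strand) had 138 in WT 1 and 365 in WT 2, and 208 and 551 in the 2 labelled Ythdf1 KO. The second library of each group was thus the higher, 2.66-fold within WT and 2.64-fold within the other group. Both spreads were wider than the ratio of group means of 1.51, from 251 ± 161 (SD, n = 2) to 379.7 ± 242 (SD, n = 2). The 122 reads in WT 1 give a 95% Poisson interval of 114 to 164 and the 362 reads in WT 2 one of 329 to 405, so the WT values differed beyond counting error. Such intervals cover counting error only. The log2 difference was 0.59 (95% interval -1.22 to 2.41, limma-trend adjusted p = 0.88), and leaving out either WT 1 or Ythdf1 KO 2 turned it to -0.11. The 3' end of Nox1 shares 402 bases with Cstf2, a polyadenylation factor gene on the plus strand, which had 823 and 1168 in WT and 1224 and 711 in the 2 labelled Ythdf1 KO. The labels do not say whether counting used strand, and the part of reads from the shared bases in the Nox1 values was not tested.

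The stretch upstream of Nox1 is shown because Gata6 and Cdx2, textbook regulators of this promoter, were among the genes followed. It covers the 250 bases before the start of NM_172203.2 (RefSeq, GRCm38.p6, chrX:134111855-134112104, minus strand), and capitals mark every match to the GATA letters GATAA or the CDX letters TTTAT on either strand.
Nox1 upstream 250 bases: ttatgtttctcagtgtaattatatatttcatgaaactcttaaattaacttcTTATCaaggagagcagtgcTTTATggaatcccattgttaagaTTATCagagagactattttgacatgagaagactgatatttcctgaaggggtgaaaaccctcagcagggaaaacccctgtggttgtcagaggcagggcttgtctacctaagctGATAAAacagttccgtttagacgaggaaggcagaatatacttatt
The stretch holds 3 GATAA matches and 2 TTTAT matches, and the match nearest the start is an overlap of both. Of 32851 RefSeq promoters, 22.6% hold GATAA and 37.3% hold TTTAT in the same 250 bases, so these short motifs are common. A kappa B motif, matched in 7.25% of promoters, lies at positions -91 to -82 from the start on the opposite strand. No match to TATAAA, the octamer letters ATTTGCAT or the STAT letters TTCNNNGAA was found here, against 12.4%, 1.6% and 7.02% of promoters that hold them. The longer Nox1 transcript XM_006528515.3, which starts 25857 bases further upstream, had the same value as NM_172203.2 in all 4 libraries, so the counts do not separate these starts.

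Of these factors Cdx2, a homeobox factor of intestinal identity, had 9105 and 10439 in WT and 8698 and 6526 in the 2 labelled Ythdf1 KO. Both of the latter lay below both WT libraries, by a log2 difference of -0.37 (limma-trend adjusted p = 0.759). Nox1 was highest in Ythdf1 KO 2, where Cdx2 was lowest, but next highest in WT 2, where Cdx2 was highest. The part of Cdx2 in the Nox1 values was not tested. Gata6 overlapped between the groups, at 3386 and 4109 against 3236 and 3601. Nox1 is known to be higher in distal than in proximal colon, so Hox genes of the distal hindgut were read beside it. Of 6 tested, 3 lay above both WT libraries and 0 below, beside 14.3% above and 21.4% below over all genes. Of these Hox genes, 0 were called by limma-trend, DESeq2 or the authors' deposited q. Their median log2 difference of 0.94 was 0.20 without Ythdf1 KO 2. Hoxd13 had 596 and 462 in WT and 721 and 1998 in the 2 labelled Ythdf1 KO, and Hoxb13 had 1957 and 2725 against 2332 and 7052. The part of colon position in the Nox1 values was not tested.

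The membrane partner Cyba (gene ID 13057, NM_007806.3, chr8:122424771-122432940, minus strand), which encodes p22phox, had 459.9 and 555 in WT 1 and WT 2 and 834 and 713 in the 2 labelled Ythdf1 KO. Those groups did not overlap, and within each group the libraries lay within 1.21-fold of each other. The means were 508 ± 67.5 and 773 ± 85.4 (SD, n = 2 each), a ratio of 1.52, with a log2 difference of 0.61 (95% interval -0.22 to 1.44, limma-trend adjusted p = 0.77). It lay between 0.47 and 0.74 when each library was left out in turn. The authors' deposited table gives Cyba a log2 fold change of 0.61 with p = 0.0434 and q = 0.302. A second variant of the same span, NM_001301284.1, did not overlap either, at 272 and 494 in WT against 603 and 502, the last only just above WT 2. It stood at 59.1% of the kept transcript in WT 1 and at 88.9% in WT 2, so the variants were not in a fixed proportion even between the WT libraries. Leukocytes also use p22phox, and their summed markers, as given above, were lower in the 2 labelled Ythdf1 KO than in both WT libraries. In bulk RNA, fewer cells of a type and less RNA per cell cannot be told apart.

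The organiser Noxo1 (gene ID 71893, NM_027988.4, chr17:24696234-24700530, plus strand), which holds the complex together at the membrane, varied least of the 7 genes. Its values were 1889 and 1758 in WT and 1970.0 and 2362 in the 2 labelled Ythdf1 KO, a spread of 1.34-fold between the highest and the lowest library. The groups did not overlap, but Ythdf1 KO 1 stood only just above WT 1. Its counting interval of 1885 to 2058 took in that WT value. The means were 1823 ± 92.9 and 2166 ± 277 (SD, n = 2 each) and the log2 difference was 0.24 (95% interval -0.29 to 0.77, limma-trend adjusted p = 0.83). All 7 listed Noxo1 transcripts had a higher mean in the 2 labelled Ythdf1 KO, with ratios of 1.19 to 1.30. In XM_006524951.3 the groups overlapped, at 1542 and 1445 in WT against 1512 and 2039. The 7 transcripts share reads, so they are not separate measurements. One of them, XM_011246629.2, stood at 93.5% of the kept transcript in each WT library and at 107% and 98.5% in the other libraries.

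The activator Noxa1 (gene ID 241275, NM_172204.4, chr2:25085667-25095205, minus strand) went the other way from Cyba and Noxo1. It had 1023 and 873 in WT 1 and WT 2 and 488 and 735 in the 2 labelled Ythdf1 KO, so that both of the latter lay below both WT libraries. The means were 948 ± 106 and 612 ± 175 (SD, n = 2 each), a ratio of 0.645. In limma-trend the log2 difference was -0.66 (95% interval -1.51 to 0.20, adjusted p = 0.76), between -0.95 and -0.36 when each library was left out in turn. The authors' deposited table gives -0.63 with p = 0.0476 and q = 0.314. The 3' end of Noxa1 shares 53 bases with Entpd8, an ectonucleotidase gene on the plus strand. Entpd8 itself had 3279 and 3589 in WT and 3405 and 3032 in the 2 labelled Ythdf1 KO, which overlapped. The part of reads from the shared bases in the Noxa1 values was not tested.

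The opposite course of organiser and activator showed in the ratio of their normalised counts, which can be read between libraries but not as a molar ratio, because the values scale with transcript length. Noxo1 over Noxa1 was 1.85 and 2.01 in WT and 4.04 and 3.21 in the 2 labelled Ythdf1 KO. Noxo1 over Nox1 was 13.7 and 4.81 in WT and 9.45 and 4.29 in the others, so there the groups overlapped. These ratios were chosen after the values were seen and carry no test. Rac1, the GTPase that completes the complex, overlapped between the groups at 6666 and 7505 in WT and 6950.3 and 7625 in the 2 labelled Ythdf1 KO.

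**Figure D2:**
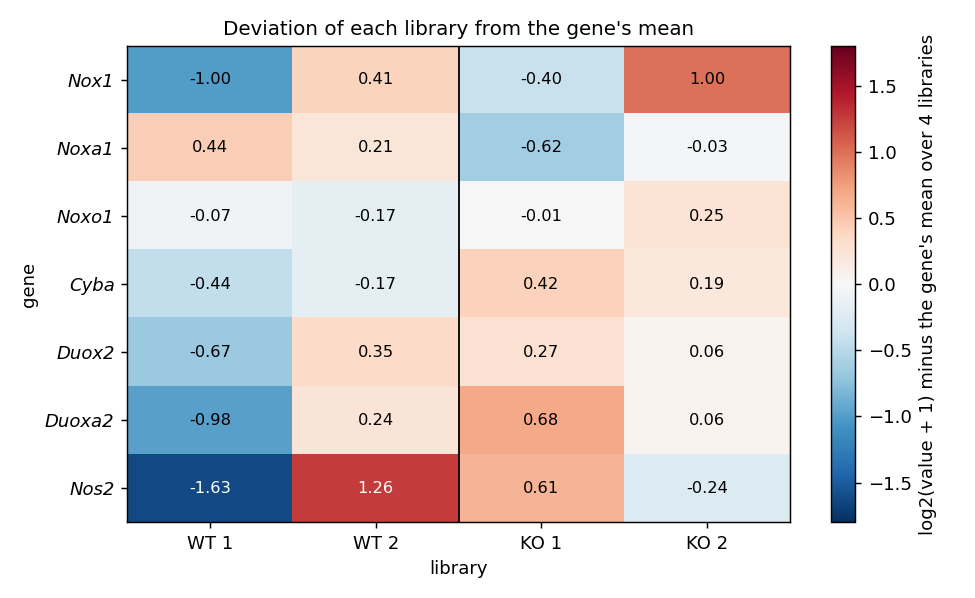
Deviation of log2(value + 1) in each library from the gene's mean over the 4 libraries, for the 7 genes; KO 1 and KO 2 are the libraries labelled Ythdf1 KO. WT 1 is the lowest library for Nox1, Cyba, Duox2, Duoxa2 and Nos2, and Noxa1 is lowest in KO 1.

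The dual oxidase Duox2 (gene ID 214593, XM_006499110.2, chr2:122279246-122298742, minus strand) varied more within WT than between the labelled groups. It had 5043 in WT 1 and 10207 in WT 2, a 2.02-fold spread, and 9669.7 and 8367 in the 2 labelled Ythdf1 KO, which lay between the WT values. The means were 7625 ± 3652 and 9018 ± 921 (SD, n = 2 each) and the log2 difference was 0.33 (95% interval -0.46 to 1.11, limma-trend adjusted p = 0.844). It was -0.18 without WT 1. A second transcript, NM_177610.2, lies within the span of the kept one and stood at 76.2% and 80.4% of it in WT and at 78.5% and 68.5% in the 2 labelled Ythdf1 KO.

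Its maturation factor Duoxa2 (gene ID 66811, NM_025777.2, chr2:122298900-122302885, plus strand) followed the same low value in WT 1. It had 373 in WT 1, 868 in WT 2, and 1181 and 770.1 in the 2 labelled Ythdf1 KO, of which the last lay below WT 2. The means were 621 ± 350.1 and 975 ± 290.4 (SD, n = 2 each), a ratio of 1.57, with a log2 difference of 0.74 (95% interval -0.46 to 1.94, limma-trend adjusted p = 0.805) that was 0.14 without WT 1. Duox2 over Duoxa2 was 13.5 and 11.8 in WT and 8.19 and 10.9 in the others. This ratio spanned 1.65-fold, less than the 3.17-fold of Duoxa2 alone.

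Duox2 and Duoxa2 lie head to head, with 157 bases between the starts of their kept transcripts. That stretch is shown because the oxidase and its maturation factor are transcribed away from it in opposite directions and were both lowest in WT 1 (RefSeq, GRCm38.p6, chr2:122298743-122298899, written on the Duoxa2 strand). Capitals mark the octamer letters ATTTGCAT and the TATA letters TATAAA, each searched on both strands.
Duox2-Duoxa2 intergenic stretch: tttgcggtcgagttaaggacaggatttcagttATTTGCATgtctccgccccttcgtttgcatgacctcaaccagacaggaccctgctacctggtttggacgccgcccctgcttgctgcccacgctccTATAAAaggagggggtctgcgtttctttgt
The TATAAA match lies at -30 to -25 from the Duoxa2 start, and 7.87% of promoters hold these letters in the same 157 bases. The octamer lies at -125 to -118, and 1.03% of promoters hold it. The CDX letters TTTAT match once, within the TATA match, as in 25.0% of promoters. No match to the STAT letters TTCNNNGAA, a kappa B motif or GATAA was found in this window; 4.28%, 4.85% and 14.0% of promoters hold them.

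**Figure D3:**
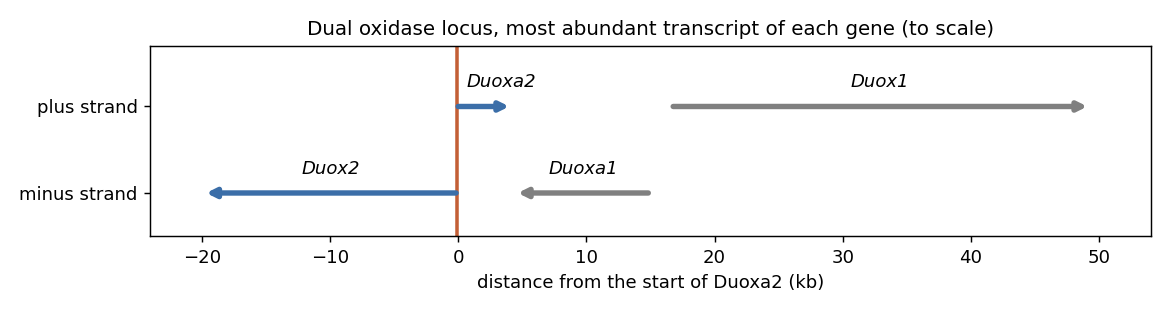
Dual oxidase locus to scale, as distance in kb from the start of Duoxa2, with arrows for the direction of transcription and an orange band for the 157 bases between Duox2 and Duoxa2. Duox1 and Duoxa1 also lie head to head beside it, with a wider gap. Duoxa1 starts 14830 bases and Duox1 16772 bases from the start of Duoxa2.

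The neighbouring pair was not lowest in WT 1. Duox1, the other dual oxidase, had 338 and 269.6 in WT and 1.94 and 149.7 in the 2 labelled Ythdf1 KO, where the first stands for 2 reads. Both lay below both WT libraries (log2 difference -3.85, limma-trend adjusted p = 0.759). The authors' deposited table gives Duox1 a log2 fold change of -2.00 with q = 0.475. The maturation factor Duoxa1 had 74.4 and 126 against 132 and 29.8, which overlapped.

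Nos2 (gene ID 18126, NM_010927.4, chr11:78920787-78960226, plus strand) was the most variable of the 7 genes. It had 66.5 in WT 1 and 498 in WT 2, a 7.48-fold spread within WT, and 317 and 175 in the 2 labelled Ythdf1 KO, between the WT values. The 59 reads in WT 1 give a counting interval of 50.6 to 85.8 and the 493 reads in WT 2 one of 455 to 544, so the WT libraries differed beyond counting error. The means were 282 ± 305 and 246 ± 100.2 (SD, n = 2 each), a ratio of 0.873. Means and log2 values disagreed in direction: the log2 difference was 0.37 (95% interval -2.12 to 2.86, limma-trend adjusted p = 0.983), against -0.17 in edgeR and in DESeq2. Leaving out WT 1 gave -1.07, and leaving out Ythdf1 KO 1 gave -0.06. The transcript NM_010927.4, which starts at least 3953 bases upstream of the other 3 listed, stood above them in Ythdf1 KO 1, where each of the others came to 86.9% of it; in the other libraries they lay between 98.3% and 105%.

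Leukocytes can also express Nos2. Their 12 listed markers summed to 2193 in WT 1, where Nos2 was lowest, to 1982 in WT 2, where it was highest, and to 1094 and 1900.0 in the 2 labelled Ythdf1 KO, and 5 of the 12 were at 0 in at least 1 library. The pan-leukocyte antigen Ptprc had 666 and 281 against 253 and 118, and the macrophage marker Adgre1 had 104 and 29.3 against 0 and 24.8. The part of leukocytes in the Nos2 values was not tested.

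Across the set, WT 1 was the lowest library for 5 of the 7 genes, Nox1, Cyba, Duox2, Duoxa2 and Nos2. Among the 13540 genes with a mean of at least 100 and no library at 0, it was the lowest for 25.8%. The highest-to-lowest ratio was 7.48 for Nos2, 4.01 for Nox1, 3.17 for Duoxa2, 2.10 for Noxa1, 2.02 for Duox2, 1.81 for Cyba and 1.34 for Noxo1, beside a median of 1.94 over those genes. All 4 heme peroxidases, which consume hydrogen peroxide, overlapped between the groups, with a median log2 difference of -1.23. Lactoperoxidase (Lpo) was lowest in WT 1, at 436 and 784 in WT and 851 and 741 in the 2 labelled Ythdf1 KO. Myeloperoxidase (Mpo) was highest there, at 255 and 59.6 against 89.2 and 0. Eosinophil peroxidase (Epx) had 90.2 and 150.4 against 25.2 and 100.1.

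**Figure D4:**
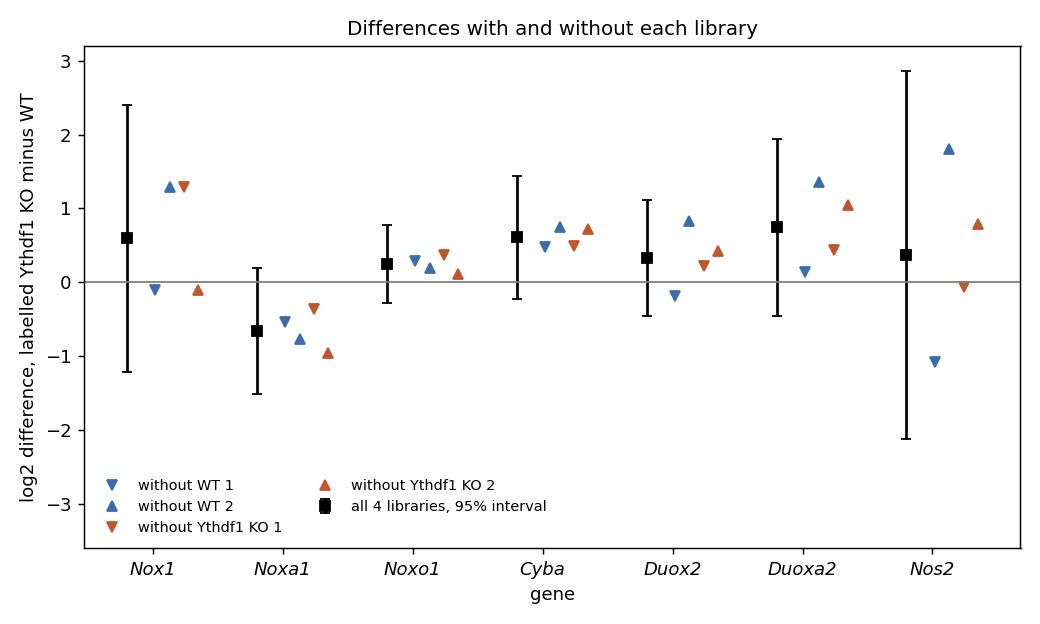
Log2 difference of each gene, libraries labelled Ythdf1 KO minus WT, with all 4 libraries (square, bar for the 95% limma-trend interval) and with each library left out (triangles). Every interval takes in 0, and the triangles of Nox1, Duox2 and Nos2 lie on both sides of 0 while those of Noxa1, Noxo1, Cyba and Duoxa2 do not.

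Genes most like each of the 7 were named by the root mean square difference of centred log2 values over the 4 libraries, among genes with a mean of at least 500. With 4 libraries many genes come close by this measure. For Noxo1 they were Ptov1 (0.013), Odc1 (0.016) and 2010107E04Rik (0.016), with 423 of 7430 genes under 0.1. For Cyba they were Bccip (0.022), Mettl9 (0.038) and Ube4a (0.042), and for Noxa1 they were Ube3a (0.046), AI464131 (0.051) and Fbxw4 (0.052). Duox2 lay nearest to Gtf3a (0.030), Dbi (0.035) and Cep192 (0.044), with 23 genes under 0.1. No gene came under 0.1 for Duoxa2, Nox1 or Nos2, whose nearest were Nfxl1 (0.108), Nop56 (0.128) and Ndufc2 (0.212).

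Other genes of the pathways, 87 tested in 9 lists beside the 7, gave 0 limma-trend calls and 4 with an unadjusted p under 0.05. edgeR called 0 of them, DESeq2 called 4, and 4 have a q under 0.05 in the authors' deposited table. Of the 87, 14 lay above both WT libraries and 13 below, that is 16.1% and 14.9%, beside 14.3% and 21.4% of all genes. Their median log2 difference was -0.03, beside -0.09 for all genes tested. The counts above and below in each list that follows are to be read beside the 14.3% and 21.4% of all genes.

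**Figure D5:**
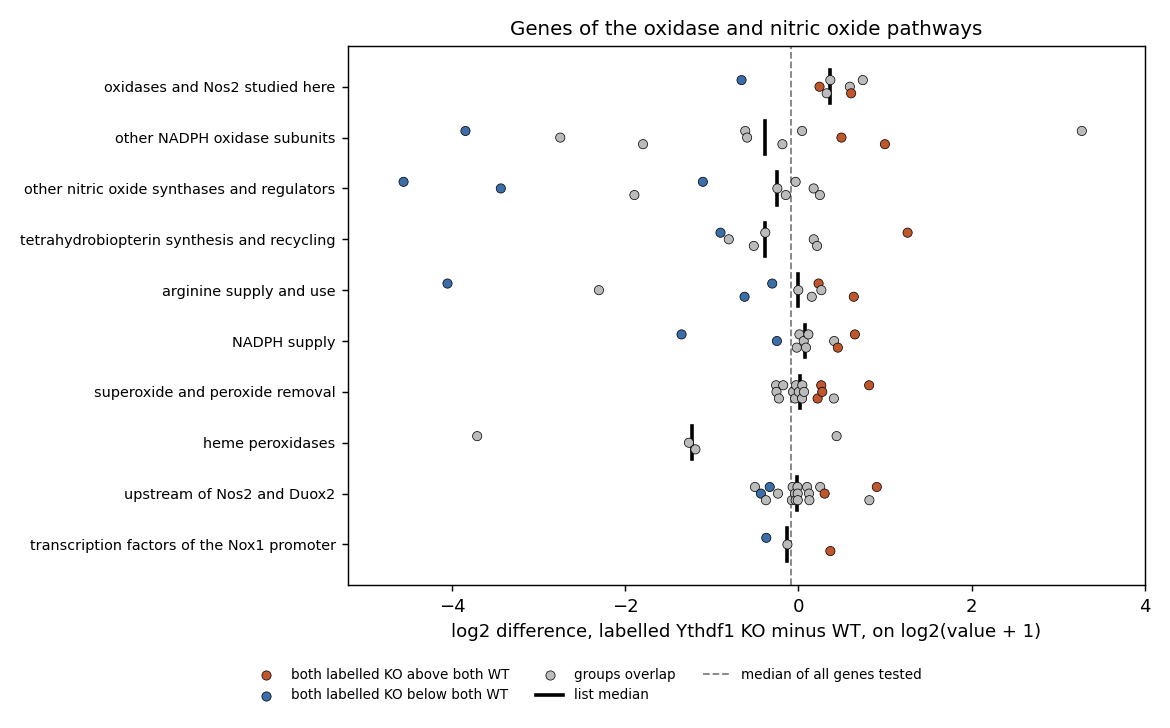
Log2 difference of each tested gene (points) of the 7 genes and of 9 pathway lists, on the log2(value + 1) scale, with colours for non-overlapping groups, a bar for each list's median and a dashed line for the median of all genes tested (-0.09). Points of each list lie on both sides of 0.

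The remaining NADPH oxidase subunits, which mostly serve phagocytes or other tissues, had 2 of 10 tested above and 1 below, with 0 called. Rac2, the GTPase of blood cells, was among those above, at 126 and 129 against 316 and 208. Cybb, the catalytic subunit of phagocytes, was near the bottom of the range, at 54.1 and 11.1 in WT and 54.3 and 0 in the 2 labelled Ythdf1 KO. Its organiser Ncf1 had 62.0 and 80.8 against 0 and 112. Ncf4 rested on Ythdf1 KO 1 alone, at 102, with about 1 read or none in each of the other libraries. Nox4 overlapped at 87.9 and 74.7 against 107 and 26.5, as did Cybc1 (listed as BC017643), a chaperone of the phagocyte oxidase, at 498 and 418 against 560.4 and 287. Nox3 was not listed.

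Around nitric oxide, 0 of 9 tested synthases and regulators lay above and 3 below. Ddah2, an enzyme that clears methylarginine inhibitors of the synthases, had 138 and 432 in WT and 1.94 and 35.6 in the 2 labelled Ythdf1 KO. Its log2 difference was -4.56 (unadjusted p = 0.0439, limma-trend adjusted p = 0.759). DESeq2 gave it an adjusted p of 0.0325, and the authors' deposited table a log2 fold change of -3.92 with q = 0.0407. The neuronal synthase Nos1 had 260.4 and 288 against 103 and 156, and Gucy1a2, a subunit of the nitric oxide receptor guanylate cyclase, 292 and 149 against 107 and 2.48. The endothelial synthase Nos3 was uneven in both groups, at 0 and 152 against 80.5 and 1.65. Nosip, Nostrin, Ddah1, Adh5 and Gucy1a1 (listed as Gucy1a3) overlapped.

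Tetrahydrobiopterin, the cofactor of the synthases, is made by Gch1, Pts and Spr. Of 7 tested genes of its synthesis and recycling, 1 lay above and 1 below. Pts had 459 and 373 in WT and 183 and 266 in the 2 labelled Ythdf1 KO (log2 difference -0.90, limma-trend adjusted p = 0.765). Gchfr, the feedback regulator of the first enzyme, lay above at 32.7 and 35.3 against 88.2 and 77.8. The rate-limiting Gch1 overlapped, at 1264 and 832 against 562.3 and 1098. Nos2 was lowest in WT 1, where Gch1 was highest, but Nos2 was highest in WT 2 and Gch1 lowest in Ythdf1 KO 1. The part of Gch1 in the Nos2 values was not tested.

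Of 9 tested arginine genes, 2 lay above and 3 below. The cationic amino acid transporter Slc7a1 had 1225 and 1219 in WT and 1514 and 2392 in the 2 labelled Ythdf1 KO (log2 difference 0.64, limma-trend adjusted p = 0.759). Ornithine decarboxylase (Odc1) was the other above, at 3223 and 2916 against 3275 and 3959. Arg2, the mitochondrial arginase, lay below, at 269 and 156 against 153 and 0.

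For NADPH supply, 2 of 10 tested lay above and 2 below. Mthfd1, a folate enzyme with an NADPH-forming step, had 1269 and 1180.2 in WT and 2017 and 1835 in the 2 labelled Ythdf1 KO. Its log2 difference was 0.65 (unadjusted p = 0.0278, limma-trend adjusted p = 0.759), DESeq2 gave an adjusted p of 0.0170, and the authors' deposited table q = 0.0271. Idh1, the cytosolic NADP-dependent isocitrate dehydrogenase, had 1995 and 2276 against 2732 and 3123. Malic enzyme (Me1) lay below, at 602 and 404 against 282 and 132.

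Enzymes that remove superoxide and peroxide had 4 of 16 tested above and 0 below, beside 14.3% and 21.4% of all genes. Gpx2, the glutathione peroxidase of gut epithelium, had 2091 and 2728 in WT and 3218 and 5497 in the 2 labelled Ythdf1 KO, a ratio of 1.81. Its log2 difference was 0.82 (unadjusted p = 0.0341, limma-trend adjusted p = 0.759), DESeq2 gave an adjusted p of 0.0304, and the authors' deposited table q = 0.0444. Gpx1 had 4132 and 3652 against 4405 and 5012, and the thioredoxin reductase Txnrd1 5702 and 5698 against 7136 and 6185. The list's median of 0.02 was -0.03 with quantile normalisation.

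Among 19 tested receptors and transcription factors upstream of Nos2 and Duox2, 2 lay above and 2 below. Il10rb, a receptor chain shared by IL-10, IL-22 and type III interferon receptors, had 786 and 877 in WT and 1295 and 1868 in the 2 labelled Ythdf1 KO. Its log2 difference was 0.90 (unadjusted p = 0.0216, limma-trend adjusted p = 0.759), DESeq2 gave an adjusted p of 0.0136, and the authors' deposited table q = 0.0231. The interferon gamma receptor chain Ifngr2 had 3152 and 3849 against 3973 and 4642. The NF-kB subunit Rela lay below, at 1659 and 1700.2 against 1277 and 1394. Ripk2, the kinase of NOD signalling, overlapped at 222 and 450.3 against 833 and 375, and like Duoxa2 it was lowest in WT 1 and highest in Ythdf1 KO 1.

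Markers of crypt and surface cells were read beside these values, since cells of different crypt height express different oxidases. Crypt and cycling markers had 5 of 10 above and 0 below (median log2 difference 0.47), among them Sox9 at 4647 and 3751 in WT and 7328 and 6633 in the 2 labelled Ythdf1 KO. Surface colonocyte markers had 2 above and 6 below (median -0.21), among them the carbonic anhydrase Car1 at 102727 and 116128 against 73552 and 42374. These counts stand beside 14.3% above and 21.4% below over all genes. limma-trend called 0 of these markers, with an unadjusted p under 0.05 for 3 crypt and 4 surface genes, beside 5.44% of all genes. DESeq2 called 2 crypt markers higher and 2 surface markers lower, beside 6.11% of all genes. By the authors' deposited q, 2 crypt markers were higher and 1 surface marker was lower. The part of crypt and surface cells in the values of the 7 genes was not tested.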

How the data were processed

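The 4 input libraries share a deposited table of RefSeq transcripts (mm10). The submitters' processing notes name Bowtie2 2.2.5 and SAMtools 1.3.1, and, with no roles stated, CASAVA 1.8, deepTools 3.3.0, HOMER 4.10 and MACS2 2.1.0. The counting program, strand use and the authors' test were not given in these sources. The deposited signal is a read count divided by a size factor: 100% of values were whole multiples, within 0.001, of a library's lowest value above 0, which recovers whole reads. The authors' log2 fold change, p-value and q-value were copied per the file headers. Transcripts share reads between isoforms.

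For each gene the transcript with the highest mean was kept, genes reaching a value of 1 in 2 or more libraries were tested, and all 7 reached it in every library. limma-trend 3.58.1 (robust, R 4.3.3) was fitted on log2(value + 1), with the labelled group as the only term and Benjamini-Hochberg adjustment over 23116 genes. The added 1 can shrink the differences of low genes. A library near 0 can instead make the log2 difference larger than the ratio of means shows. For Duox1 it was -3.85, beside a ratio of means of 0.250 and -2.00 in the authors' deposited table. Among the alternatives were edgeR 4.0.16 and DESeq2 1.42.0 on recovered reads. The 7 genes, the lists and the rule for named genes were chosen with earlier results of these data known; the rule names all 7, the genes of the oxidase, synthase and tetrahydrobiopterin lists, and the 4 smallest p of each other list. Of 154 list symbols, 148 matched by symbol, 2 by RefSeq gene ID and 4 were not listed. RefSeq promoters (GRCm38.p6) matched 6 of the 7 genes. Some genes of the lists are counted but not reported here by name.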

Additional observations from a re-analysis of the deposited data

How the results depend on the processing

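Under 16 alternatives the 7 genes gave 110 values, of which 103 kept their direction, 7 turned and 0 were called (smallest adjusted p 0.255, Cyba in DESeq2). Nos2 turned to -0.17 in edgeR and in DESeq2. Leaving out each library in turn gave -0.11 to 1.30 for Nox1, -0.18 to 0.83 for Duox2 and -1.07 to 1.81 for Nos2. The count of genes called was 524 in limma without a trend, 1431 in DESeq2 and 0 to 36 when a library was left out; for these the cause was not tested. With the replicate number as a block, which estimates the same differences, limma-trend called 0 genes and gave the 7 genes adjusted p of 0.811 to 0.983; deviations of same-numbered libraries correlated at 0.022 over 7431 genes, so the numbers are not taken to pair them. Without a library the share of all genes that did not overlap was 26.5% to 31.1% above and 36.5% to 37.2% below, since 3 libraries overlap less often than 4, and the 7 genes gave counts of 2 to 6 above and 1 to 3 below. Nos2 and Nox1 fell under the stricter minimum mean of 500 and have no value there. Among the 7 genes, Nos2 in WT 1 had the fewest reads, 59.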
